A study of Glycine max with 12 samples.

Results

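Roots of an Al-tolerant soybean (Glycine max) variety, written KF, and of an Al-sensitive one, Guangfengmaliaodu, written GF, were compared here as they stand without aluminium. The members are the 6 arrays labelled as controls out of 12 in the series: 1 KF and 1 GF array at each of 6, 12 and 24 h, which form 3 pairs matched on time. Control seedlings stood in 0.5 mM CaCl2 at pH 4.3 with 0 µM AlCl3, and the other 6 arrays come from seedlings of both varieties given 25 µM AlCl3 in the same acid solution for the same times. All groups therefore share the acid, low-salt solution, and no seedling was kept at another pH. Each array holds labelled cDNA made from 0.1 µg of total root RNA. Every condition has 1 array, and the labels give no separate cultures, so n = 3 below always means 3 pairs taken at different times. Each p-value measures how steady a variety difference was from time to time, with a spread pooled over the 3 control and the 3 Al pairs.

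Aluminium ions, which dissolve in acid soil, stop root growth, and plants resist them mainly by releasing organic acids that bind the metal, through transporters of the MATE and ALMT families, or by storing it inside the cell. A variety can meet the stress with transcripts it already carries. Varieties also differ for reasons that have nothing to do with aluminium: families such as the resistance proteins, which detect pathogen molecules, vary in copy number and sequence between lines of one species. The comparison asks which transcripts differed between the varieties in seedlings that stood in the acid solution without aluminium. No array was taken before the seedlings entered that solution.

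Values are log2 intensities as deposited, on a scale where the median main probe set lay between 1.67 and 1.69 on the 6 control arrays. Probes that match no genome had medians of 1.68, 1.95 and 2.22 in GF at 6, 12 and 24 h and of 1.59, 1.68 and 1.82 in KF. The GF 24 h control array thus had the highest background, and it also stood furthest from the other control arrays. Its correlations across probe sets were 0.949 to 0.971, against 0.964 to 0.987 between other pairs, so the ranges overlap. These correlations describe the arrays only, since neighbouring probe sets move together. Marker lists of photosynthetic tissue (35 probe sets), seed storage (39), nodule (33) and root hair (6) held no called member, and 1 of 39 endodermis-type probe sets was called. In whole roots, fewer cells of a type and less RNA per cell cannot be told apart, and on an array a variety whose gene differs in sequence from the probes cannot be told apart from one that expresses less of it.

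Among 49646 probe sets tested, 626 (1.26%) were called different between the varieties in control roots, at an adjusted p under 0.05 by limma with Benjamini-Hochberg adjustment. KF was higher at 410 of them (0.826% of those tested) and lower at 216 (0.435%), so 65.5% of the calls were higher in the tolerant variety. The called differences ranged from 0.45 to 5.44 log2 units in absolute size, with a median of 1.38. At 611 of the 626 the 3 KF arrays lay wholly above or wholly below the 3 GF arrays, and 326 were at least 2-fold apart in each of the 3 pairs. Over all probe sets tested the arrays were wholly apart at 10.2% with KF above and at 7.31% with KF below.

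How many calls were made depended on which arrays were used. The count was 219 without the 6 h control pair, 124 without the 12 h control pair and 219 without the 24 h control pair. It was 108 without all 6 h arrays, 75 without all 12 h arrays and 614 without all 24 h arrays. It was 1254 without the 24 h Al pair, which enters the estimate of the spread, 518 without the 6 h Al pair and 519 without the 12 h Al pair. All 626 had the same sign in the 3 control pairs, so no fit that left out a pair or a time could change a sign. Of the 626, 57 were called in every one of those 9 fits. Below, each named gene is given with the number of these 9 fits that called it where that number is under 9.

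Counted pair by pair with no test, the varieties differed at least 2-fold at 1246 probe sets at 6 h, 750 of them (1.51% of those tested) higher in KF and 496 (0.999%) lower. The 12 h pair had 1018 higher (2.05%) and 398 lower (0.802%). The 24 h pair, which holds the GF array with the highest background, had 1881 higher (3.79%) and 732 lower (1.47%). Its balance was not stable: after cyclic loess normalization 1110 were higher and 1212 lower at 24 h, and after quantile normalization 1390 and 1146. At 12 h quantile normalization gave 739 higher and 516 lower. At least 2-fold differences at all 3 times were found at 229 probe sets with KF higher (0.461%) and at 138 with KF lower (0.278%).

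Among the 15 largest with KF higher and 1 annotated gene were several genes of pathogen detection and signalling. Over whole lists such genes went both ways. The NBS-LRR resistance protein list had 9 probe sets called higher and 9 lower, and the LRR receptor kinase list 3 higher and 2 lower. Among the 15 largest with KF lower were 2 Kunitz-type protease inhibitors, a matrix metalloproteinase and an expansin-like gene. The varieties did not overlap at any of these 30 genes in control roots, which was also so at 611 of all 626 calls. Of the 30, 22 were called in all 9 fits that left out arrays. In Al-treated roots 29 of the 30 were also called in the same direction, against 45.0% of all 626 control calls. The 30 were chosen for the size of their control difference. For 3 of the 15 higher and 5 of the 15 lower the dim variety lay at or below the background median on all 3 arrays, so the fold is given there as a lower bound. A log2 difference printed beside such a bound is the fitted one, from the measured values of the dim variety, and is not a bound.

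**Figure D1:**
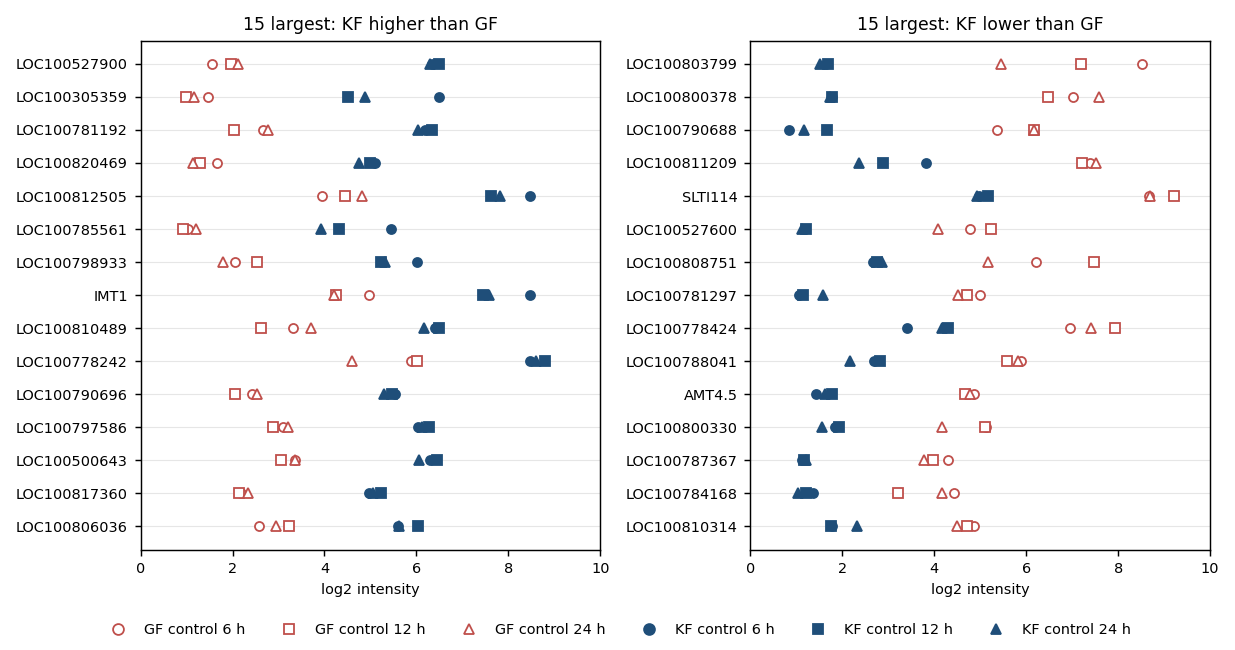
Log2 intensity on the 6 control arrays (horizontal axis) for the 15 genes with the largest called rise (left) and the 15 with the largest called fall (right) of KF against GF; open red symbols are GF, filled blue symbols KF, and the shape gives the time. In each row the 3 KF symbols lie apart from the 3 GF symbols.

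Of the probe sets with 1 annotated gene, the largest difference with KF higher was at LOC100527900 (GLYMA03G12150, chromosome 3, 15206517 to 15208504), an uncharacterized gene. GF read 1.56, 1.96 and 2.12 at 6, 12 and 24 h and KF read 6.34, 6.48 and 6.29, a difference of 4.49 ± 0.24 log2 units (SE, n = 3 pairs; limma adjusted p = 9.81e-05). The GF values lay around the background median, while all 3 KF values were far above it. LOC100781192 (chromosome 20, 3326279 to 3326720) is annotated as LURP-one-related 12-like, of a family with members that respond to pathogens in Arabidopsis. Its GF values were 2.66, 2.04 and 2.77 and its KF values 6.18, 6.33 and 6.03, a difference of 3.69 ± 0.24 (limma adjusted p = 0.000267). At both genes the 3 KF arrays lay far above the 3 GF arrays.

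Some of the genes higher in KF carry leucine-rich repeats, the module with which receptors and resistance proteins recognise other molecules. Of 285 LRR receptor kinase probe sets tested, 3 were called higher and 2 lower (1.75%, against 1.26% of all probe sets). Of the genes described next, LOC100785561 is in that list, while LOC100305359 and LOC100820469 are not. LOC100305359 (GLYMA14G04731, chromosome 14, 3258445 to 3259257), annotated as a PK-LRR-TM resistance protein, read 1.47, 0.99 and 1.15 in GF and 6.49, 4.52 and 4.88 in KF. GF lay below background, and KF was at least 10.2-fold higher (limma adjusted p = 0.00405, called in 8 of 9 fits). LOC100785561 (GLYMA09G35011, chromosome 9, 41254527 to 41258109), a probable LRR receptor-like kinase, read 1.04, 0.92 and 1.21 in GF and 5.45, 4.32 and 3.92 in KF, at least 6.12-fold apart (limma adjusted p = 0.000928). At both genes KF was highest at 6 h and GF stayed at background throughout. LOC100820469 (GLYMA09G16090, chromosome 9, 19201065 to 19203101), an F-box/LRR-repeat protein 3-like gene whose family selects proteins for breakdown, was at least 8.01-fold higher in KF, with GF at 1.66, 1.29 and 1.15 and KF at 5.11, 4.99 and 4.75.

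Other genes of this group encode enzymes and regulators. IMT1 (GLYMA06G14200, chromosome 6, 11198586 to 11202049), annotated as caffeic acid 3-O-methyltransferase-like, belongs to a family that methylates phenolic compounds such as lignin precursors. It read 4.97, 4.25 and 4.20 in GF and 8.46, 7.44 and 7.59 in KF, which is 10.2-fold higher (3.35 ± 0.18 log2 units, limma adjusted p = 9.81e-05). In both varieties the 6 h array was the highest, and the 3 pairs differed by nearly the same amount. LOC100812505 (GLYMA11G35780, chromosome 11, 37383143 to 37383629), uncharacterized but with a heavy metal-associated domain, a fold that binds metal ions in other proteins, read 3.94, 4.45 and 4.81 in GF and 8.48, 7.61 and 7.81 in KF. That is an 11.8-fold difference (3.56 ± 0.29 log2 units, limma adjusted p = 0.000805). The KAN4-like transcription factor LOC100778242 (GLYMA17G36500, chromosome 17, 40430524 to 40434691), whose Arabidopsis family sets organ polarity, was 8.76-fold higher, with GF at 5.89, 6.02 and 4.59 and KF at 8.48, 8.80 and 8.60 (called in 7 of 9 fits). The RING1-like E3 ubiquitin ligase LOC100797586 (GLYMA10G43160, chromosome 10, 49949460 to 49952116) was 8.44-fold higher, with GF between 2.89 and 3.21 and KF between 6.03 and 6.27. The remaining 6 of the 15 were the uncharacterized LOC100810489, LOC100790696, LOC100500643 and LOC100806036, from 2.83 to 3.14 log2 units higher (LOC100790696 called in 5 of 9 fits and LOC100806036 in 4), and a pair of resistance-type genes described with their family.

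The largest fitted difference in the other direction was at LOC100803799 (GLYMA03G02870, chromosome 3, 2696108 to 2696799), annotated as ruBisCO-associated protein-like. GF read 8.52, 7.20 and 5.44 and KF read 1.65, 1.68 and 1.52, a fitted difference of -5.44 ± 0.45 log2 units (limma adjusted p = 0.000832). KF lay around the background median at all times, so no fold is given, while GF was lower at each later time. LOC100800378 (GLYMA09G22455, chromosome 9, 27691719 to 27692289) carries a caleosin domain, found in proteins of oil bodies. It read 7.02, 6.48 and 7.59 in GF and 1.78, 1.78 and 1.74 in KF, a fitted difference of -5.26 ± 0.24 (limma adjusted p = 3.54e-05), with KF again around background. Its probe set can bind several genes. The seed storage list, which includes the oleosins of oil bodies, had 0 of 39 members called.

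Protease inhibitors of the Kunitz type, which block digestive proteases of insects and pathogens, supplied another pair of large falls. Miraculin-like LOC100790688 (GLYMA09G29350, chromosome 9, 36253235 to 36254105) read 5.37, 6.17 and 6.18 in GF and 0.85, 1.67 and 1.16 in KF, at least 18.5-fold lower (-4.68 ± 0.33, limma adjusted p = 0.000384). Trypsin inhibitor A-like LOC100811209 (GLYMA16G33723, chromosome 16, 36546490 to 36547134) read 7.40, 7.21 and 7.51 in GF and 3.83, 2.89 and 2.37 in KF, 20.3-fold lower (limma adjusted p = 0.000973). Both were called in each of the 9 fits. Of 36 protease inhibitor probe sets tested, 2 were called lower and 1 higher in KF (8.33%, against 1.26% of all probe sets). The median difference was -0.03, close to the 0.02 of all probe sets. In Al-treated roots the same pair was lower in KF by 2.02 and 1.99 log2 units.

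SLTI114 (GLYMA02G03230, chromosome 2, 2494913 to 2496440), a matrix metalloproteinase of the cell surface, read 8.66, 9.21 and 8.69 in GF and 4.97, 5.17 and 4.92 in KF. KF was 14.3-fold lower (-3.83 ± 0.23, limma adjusted p = 0.000162), and the 3 arrays of each variety lay close together. LOC100781297 (GLYMA10G24620, chromosome 10, 32175274 to 32180564), a probable beta subunit of a voltage-gated potassium channel, read 4.99, 4.72 and 4.51 in GF and 1.06, 1.14 and 1.57 in KF, at least 8.23-fold lower (limma adjusted p = 0.00279, called in 8 of 9 fits). The uncharacterized LOC100527600 (GLYMA16G01830, chromosome 16, 1365019 to 1371194) carries an ORMDL domain, that of proteins which restrain sphingolipid synthesis in yeast. It was at least 8.01-fold lower, with GF at 4.78, 5.23 and 4.09 and KF between 1.12 and 1.21. A receptor-like kinase of the ANXUR2-like kind, LOC100787367 (GLYMA18G50820, chromosome 18, 59845065 to 59846163), was at least 4.99-fold lower, with GF between 3.79 and 4.29 and KF between 1.12 and 1.21. For AMT4.5 (GLYMA02G16190, chromosome 2, 14612023 to 14616871) the reference symbol is that of an ammonium transporter while the array text gives a G-protein gamma-like domain, so its identity is uncertain. Its GF values were 4.87, 4.67 and 4.78 and its KF values 1.43, 1.79 and 1.62 (called in 8 of 9 fits).

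Expansins loosen cell walls during growth, and 2 of 57 tested were called (3.51%, against 1.26% of all probe sets). The 2 were both annotated as expansin-like B1 and both lower in KF. LOC100778424 (GLYMA17G15680, chromosome 17, 12409098 to 12410966) read 6.95, 7.92 and 7.42 in GF and 3.41, 4.31 and 4.17 in KF, 11.1-fold lower (-3.47 ± 0.22, limma adjusted p = 0.000258). The second probe set, ps12148658 (chromosome 17, 12376416 to 12378621), lies beside it, matches 2 genes and was 3.30-fold lower (limma adjusted p = 0.0459, called in 4 of 9 fits). With aluminium the difference at LOC100778424 was not called: GF then read 7.30, 7.99 and 9.12 and KF 8.52, 8.49 and 9.24, a difference of 0.61 ± 0.22 (limma adjusted p = 0.224). The control difference was lower than the Al difference by 4.08 ± 0.31 log2 units, and this contrast was itself called (limma adjusted p = 0.00529). Across the expansin list the median difference was -0.06.

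Of the 47 gene lists, that of resistance proteins had the highest share of calls. In this list, chosen by annotation text, 18 of 196 probe sets tested (9.18%) were called, against 1.26% of all probe sets. KF was higher at 9 of them and lower at 9. The list is not purely of the NBS-LRR class, since it also takes in the PK-LRR-TM gene LOC100305359. A second selection, by the NB-ARC domain that defines the NBS-LRR class and chosen after the values were seen, gave 22 of 246 (8.94%), 11 in each direction. The medians, -0.01 and -0.03, lay close to the 0.02 of all probe sets. The varieties did not overlap at any of the 22, which was also so at 611 of all 626 calls. Of the 22, 21 differed in the same direction in all 3 Al pairs, against 81.5% of all calls. In Al-treated roots 18 were also called, against 45.0% of all calls. Counts varied with the arrays left out: of the NB-ARC probe sets, 5 were called without the 12 h control pair, 8 without the 6 h control pair and 12 without the 24 h control pair, where 0.441% of all probe sets were called. Without all 12 h arrays 5 were called, without all 6 h arrays 6, without all 24 h arrays 24, and without the 24 h Al pair 34.

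**Figure D2:**
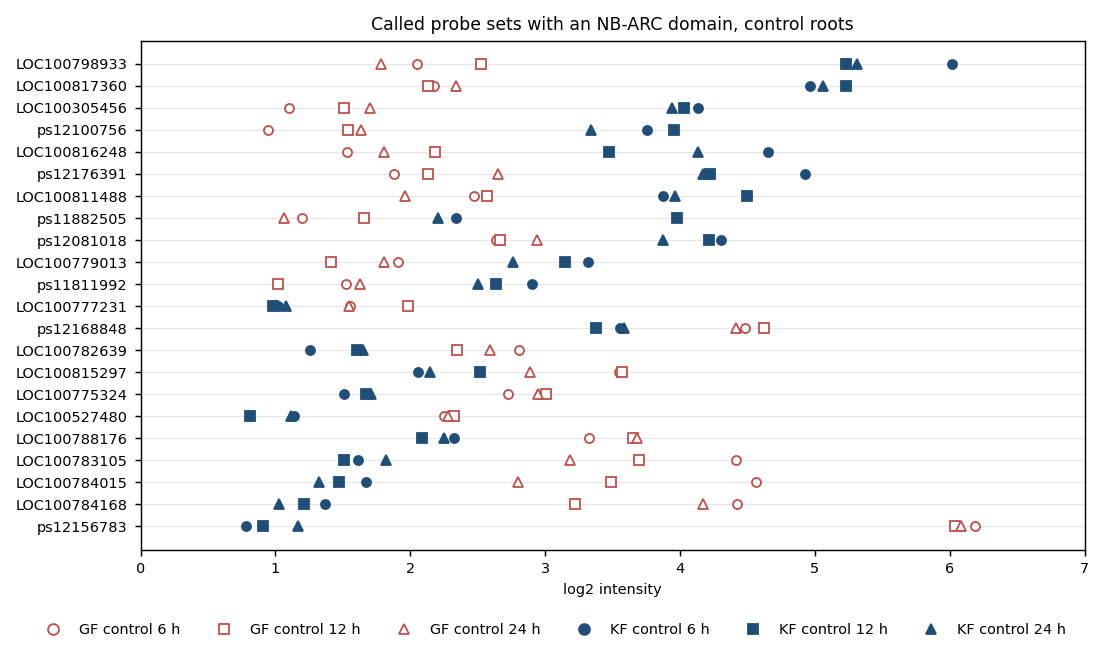
Log2 intensity on the 6 control arrays (horizontal axis) for the 22 called probe sets with an NB-ARC domain, ordered from KF higher at the top to KF lower at the bottom; open red symbols are GF, filled blue symbols KF, and the shape gives the time. Of the 22, 11 are higher in KF and 11 lower. In no row do the varieties overlap, which was also so at 611 of all 626 calls.

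Single resistance-type genes showed the contrast in both directions. LOC100798933 (GLYMA08G43020, chromosome 8, 42909137 to 42911824), RPM1-like after an Arabidopsis protein that guards against bacterial effectors, read 2.05, 2.52 and 1.78 in GF and 6.02, 5.23 and 5.32 in KF, 10.6-fold higher (3.40 ± 0.27, limma adjusted p = 0.000761). LOC100817360 (GLYMA0220S50, on an unplaced scaffold), similar to Arabidopsis SNC1, read 2.17, 2.13 and 2.34 in GF and 4.96, 5.23 and 5.06 in KF, 7.30-fold higher (limma adjusted p = 0.000267). LOC100305456 (GLYMA06G40950, chromosome 6, 44234921 to 44239168), a TIR-NBS-LRR protein, was at least 4.24-fold higher, with GF at 1.10, 1.51 and 1.70 and KF at 4.13, 4.03 and 3.94. These 3 were higher in KF by 2.23, 2.85 and 2.93 log2 units in Al-treated roots, and all were called in the 9 fits.

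In the opposite direction, the strongest probe set was ps12156783 (GLYMA18G09720, chromosome 18, 8614201 to 8616563), to which the annotation gives an NB-ARC domain but no gene name. GF read 6.19, 6.04 and 6.08 and KF read 0.78, 0.91 and 1.17, at least 21.2-fold lower (-5.15 ± 0.44, limma adjusted p = 0.000952). The other RPM1-like gene of the named set, LOC100784168 (GLYMA18G09290, chromosome 18, 8169570 to 8173170), read 4.42, 3.22 and 4.17 in GF and 1.36, 1.22 and 1.03 in KF, at least 4.72-fold lower (limma adjusted p = 0.00163). KF was at background for both. Nearby on the chromosome, ps12168848 (GLYMA18G09327, 8210551 to 8214709) was lower in KF, with GF at 4.48, 4.62 and 4.41 and KF at 3.55, 3.38 and 3.58 (limma adjusted p = 0.036, called in 2 of 9 fits), and has a probe set that can bind several genes. Chromosome 18 thus held 4 of the 22 called NB-ARC probe sets, 3 of them lower in KF, and chromosome 3 held 7, of which 4 were lower. The 22 were spread over 8 numbered chromosomes and 1 scaffold. Of the 22, 10 also carry a TIR domain, 5 higher and 5 lower.

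**Figure D3:**
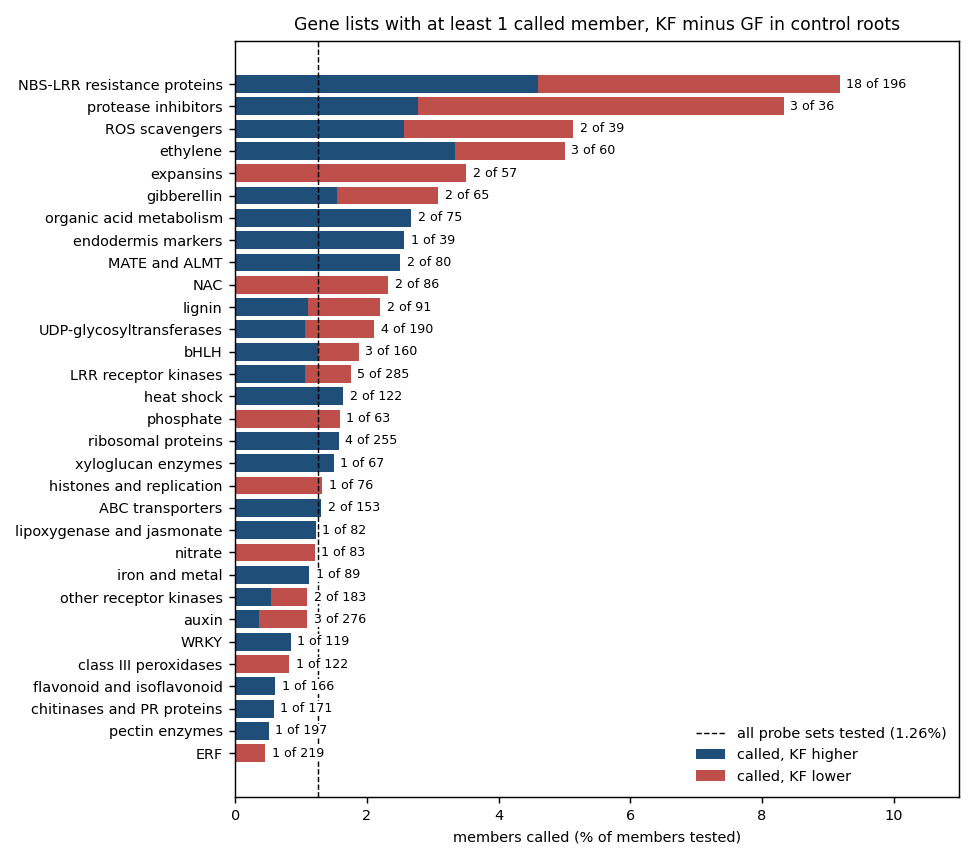
Share of the members tested that were called in control roots (horizontal axis, %), for the 31 gene lists with at least 1 called member; blue is KF higher, red KF lower, and the dashed line is the 1.26% of all probe sets tested. The NBS-LRR resistance protein list, chosen by annotation text and not purely of that class, stands at 9.18% with 18 calls, and no other list had more than 5.

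Other receptors and enzymes of defence gave single calls. Of 285 LRR receptor kinase probe sets 3 were called higher and 2 lower (1.75%), and of 183 other receptor kinases 1 higher and 1 lower (1.09%), against 1.26% of all probe sets. The cysteine-rich receptor-like kinase CRK32 read 3.10, 2.13 and 2.05 in GF and 3.99, 3.90 and 3.64 in KF (2.67-fold, limma adjusted p = 0.0192, called in 5 of 9 fits). Chitinases and PR proteins had 1 of 171 called, cytochrome P450 enzymes 0 of 200 (largest difference 1.34, limma adjusted p = 0.149) and UDP-glycosyltransferases 2 higher and 2 lower of 190. Within the last group LOC100810124, hydroquinone glucosyltransferase-like, was at least 4.70-fold lower in KF, with GF at 4.46, 3.93 and 3.41 and KF at 1.29, 1.59 and 1.49 (limma adjusted p = 0.0125, called in 5 of 9 fits).

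Class III peroxidases, secreted enzymes of the wall, are the subject of the series. Of 122 tested, 1 was called in control roots (0.820%, near the 1.26% of all probe sets). In all 3 pairs 18 of the 122 were higher and 27 lower in KF, against 21.7% and 16.6% of all probe sets. The called gene was peroxidase 16-like LOC100807430 (GLYMA15G17620, chromosome 15, 14015072 to 14018430). It read 6.19, 6.69 and 6.45 in GF and 5.03, 5.16 and 4.59 in KF, 2.86-fold lower (-1.52 ± 0.25, limma adjusted p = 0.0248, called in 4 of 9 fits). In Al-treated roots its difference was -0.54 ± 0.25 and was not called, and the change between treatments was not called either (limma adjusted p = 0.464). Of 39 probe sets for enzymes that remove reactive oxygen, 2 were called (5.13%, against 1.26% of all probe sets), 1 higher and 1 lower. Leaving out any single control pair left 0 called. The ascorbate peroxidase APX2 (GLYMA12G07780) was 2.29-fold higher in KF, with GF at 6.88, 6.57 and 6.69 and KF at 8.10, 7.90 and 7.73 (limma adjusted p = 0.0112, called in 4 of 9 fits). The iron superoxide dismutase SODB2 (GLYMA10G33710) was 1.44-fold lower (limma adjusted p = 0.0368, called in 1 of 9 fits) with all 6 values between 1.03 and 1.80, near background. None of 48 glutathione S-transferases was called, the largest difference being -1.27 at GSTU41 (limma adjusted p = 0.0658). Across all 49646 probe sets 6682 had an unadjusted p under 0.05.

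Among families known for aluminium resistance, 2 of 80 MATE and ALMT probe sets (2.50%, against 1.26% of all probe sets) were called, both higher in KF. MATE family LOC100816717 (GLYMA09G41250, chromosome 9, 45940397 to 45941800) read 1.10, 1.19 and 1.21 in GF and 2.34, 2.14 and 2.34 in KF, at least 1.25-fold higher (1.10 ± 0.10, limma adjusted p = 0.00163, called in 8 of 9 fits). FRD3-like LOC100792203 (GLYMA13G27300, chromosome 13, 30471532 to 30477485), of the type that exports citrate in Arabidopsis, read 2.15, 1.47 and 1.55 in GF and 4.36, 2.94 and 2.70 in KF, 3.05-fold higher (limma adjusted p = 0.0242, called in 4 of 9 fits). In Al-treated roots the differences were 0.03 and 0.09 log2 units and not called, and neither change between treatments was called (limma adjusted p = 0.0765 and 0.283). The ALS3-like gene LOC100814304 (GLYMA03G33290), whose Arabidopsis relative moves aluminium away from the root tip, read 5.38, 5.20 and 5.24 in GF and 6.22, 5.84 and 5.88 in KF without passing (0.71 ± 0.18, limma adjusted p = 0.125). None of the 7 STOP1 and ALS type probe sets was called.

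Enzymes that make and use organic acids leaned towards KF. Of 75 tested, 26 were higher in KF in all 3 pairs and 3 lower, with a median difference of 0.14 against 0.02 for all probe sets, of which 21.7% were higher and 16.6% lower in all 3 pairs. Only 2 were called (2.67%, against 1.26% of all probe sets), both higher. The succinate dehydrogenase iron-sulfur subunit LOC100804926 (chromosome 13, 4657693 to 4657998) read 2.48, 2.73 and 2.62 in GF and 4.78, 4.76 and 4.66 in KF, 4.36-fold higher (limma adjusted p = 0.00153, called in 8 of 9 fits). The regulatory subunit of NAD isocitrate dehydrogenase LOC100777867 (GLYMA16G22640) read 4.58, 3.40 and 2.44 in GF and 5.40, 4.83 and 4.62 in KF, 2.78-fold higher (limma adjusted p = 0.0346, called in 2 of 9 fits). Without the 24 h control pair the list median was 0.12 and 1 member was called. In Al-treated roots the list median was -0.01.

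Genes of the low-oxygen response were taken as a group after the largest falls had been seen, so their direction follows in part from the choice. Of the 8 called members 7 were lower in KF. Over all probe sets tested 1.26% were called and 0.435% were called lower. Plant cells sense oxygen through cysteine oxidases, which mark certain ERF transcription factors for breakdown, and some oxidase genes are themselves raised when oxygen is short. Of 16 probe sets with the cysteamine dioxygenase domain of these enzymes 4 were called, all lower in KF. LOC100527888 (GLYMA16G04150, chromosome 16, 3533944 to 3537741) read 5.07, 5.56 and 4.87 in GF and 2.06, 3.57 and 2.54 in KF, 5.44-fold lower (-2.44 ± 0.26, limma adjusted p = 0.00277, called in 8 of 9 fits). The other 3, LOC100805411, LOC100819405 and LOC100806473, were 3.98-, 2.30- and 2.11-fold lower, the first and last with probe sets able to bind several genes. Their varieties did not overlap, which was also so at 611 of all 626 calls, but each was called in only 3 or 4 of the 9 fits. Without any 1 of the control pairs 1 of the 4 was called, without all 12 h arrays 1, without all 6 h arrays 0 and without all 24 h arrays 3.

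Of 5 probe sets with the hypoxia induced protein domain, found in small mitochondrial proteins, 2 were called, against 1.26% of all probe sets. LOC100500345 (GLYMA11G35870, chromosome 11, 37452571 to 37453452) read 5.34, 4.92 and 4.42 in GF and 1.66, 2.66 and 2.20 in KF, 6.59-fold lower (-2.72 ± 0.29, limma adjusted p = 0.00305, called in 8 of 9 fits). LOC100809814 (GLYMA18G02540, chromosome 18, 1612903 to 1613792) read 3.47, 5.20 and 3.47 in GF and 1.08, 2.69 and 1.22 in KF, 5.23-fold lower (-2.39 ± 0.19, limma adjusted p = 0.000605). At the second gene both varieties were highest at 12 h and kept their distance. The other 3 of the 5 differed by -0.13 to 0.19 log2 units. In Al-treated roots the differences of the called pair were -0.91 and -0.69 and not called.

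Pyruvate decarboxylase, the first enzyme of ethanol fermentation, gave 1 call among 7, against 1.26% of all probe sets. LOC100808751 (chromosome 3, 7719735 to 7723938) read 6.22, 7.47 and 5.17 in GF and 2.68, 2.75 and 2.86 in KF, 11.5-fold lower (-3.52 ± 0.37, limma adjusted p = 0.00279, called in 8 of 9 fits), with a probe set that can bind several genes. Another member, LOC100789053, differed by -0.20 (limma adjusted p = 0.694), with GF at 9.93, 10.28 and 9.75 and KF at 9.48, 10.18 and 9.69. Other fermentation and low-oxygen genes gave few calls: 1 of 25 alcohol dehydrogenases was called, higher in KF, and none of 3 lactate dehydrogenases, 6 LOB domain 41-like genes and 3 hemoglobins of the non-legume type. The 6 LOB domain 41-like probe sets all had negative differences, down to -1.23, and the 3 hemoglobin probe sets ran from -0.53 to -0.50.

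**Figure D4:**
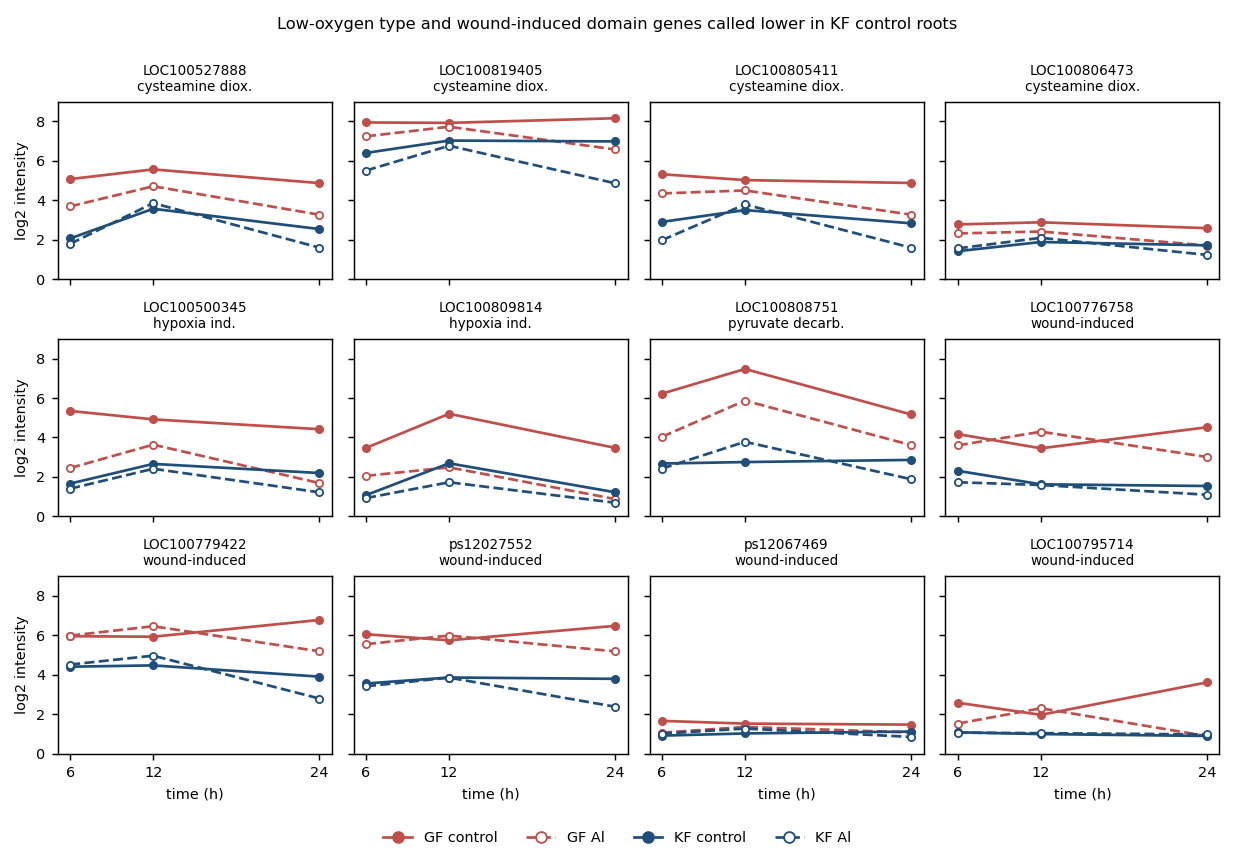
Log2 intensity (vertical axis) at 6, 12 and 24 h for the 12 probe sets called lower in KF control roots among 4 groups chosen after values were seen (cysteamine dioxygenase, hypoxia induced protein and wound-induced domains, pyruvate decarboxylase); red is GF, blue KF, solid lines control, dashed lines Al-treated. In every panel the solid red line lies above the solid blue one, which follows from the choice of probe sets called lower in KF.

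Short proteins with the wound-induced domain, of unknown function, differed in one direction throughout. All 23 tested had a negative difference, from -0.18 to -2.36, with a median of -0.68. KF was lower in all 3 pairs at 18 of the 23, against 16.6% of all probe sets, and 5 were called lower, against 0.435%. The family was picked after values were seen. LOC100776758 (GLYMA06G45381, chromosome 6, 48119120 to 48119503) read 4.17, 3.45 and 4.52 in GF and 2.31, 1.63 and 1.54 in KF, 4.66-fold lower (-2.22 ± 0.26, limma adjusted p = 0.00553, called in 7 of 9 fits). The probe set ps12027552 (GLYMA12G11650, chromosome 12, 9731394 to 9731624) was 5.12-fold lower, with GF at 6.05, 5.74 and 6.48 and KF at 3.56, 3.86 and 3.79 (limma adjusted p = 0.00168, called in 8 of 9 fits). In Al-treated roots 3 of the 23 were called lower and the median was -0.53. Without the 24 h control pair the control median was -0.59 and 2 were called, and without the 6 h or the 12 h control pair 2 were called as well. Without all 12 h arrays 1 was called, without all 6 h arrays 0, without all 24 h arrays 4, and without the 24 h Al pair 10. Several of these probe sets can bind more than 1 gene (3 of the 5 called), so they share signal.

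Genes of growth and protein making differed in single members. Of 45 tubulin probe sets 21 were higher in KF in all 3 pairs and 1 lower, against 21.7% and 16.6% of all probe sets, with a median of 0.21. Of the 45, 2 were called (4.44%, against 1.26% of all probe sets). Alpha tubulin LOC100783064 (GLYMA17G33400, chromosome 17, 37265752 to 37266445) read 3.72, 4.17 and 4.54 in GF and 6.42, 6.50 and 6.35 in KF, 4.86-fold higher (limma adjusted p = 0.00223, called in 7 of 9 fits). Of 37 probe sets with the chaperonin domain, that of protein-folding rings, 3 were called (8.11%), all higher. The mitochondrial CPN60-like LOC100787285 was 3.07-fold higher with GF at 3.09, 3.49 and 2.46 and KF at 4.52, 5.04 and 4.33 (limma adjusted p = 0.00899, called in 4 of 9 fits). The chaperonin median was 0.33, and without the 24 h control pair it was 0.12 with no call. Neither lean was seen in Al-treated roots, where the tubulin median was -0.22 and the chaperonin median 0.01. There 1 tubulin probe set was called higher and no chaperonin probe set was called. Both families were picked after values were seen.

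Ribosomal proteins had 4 of 255 called (1.57%, near the 1.26% of all probe sets), all higher in KF. The acidic protein P0-like LOC100777482 (GLYMA14G06630) read 5.77, 5.82 and 5.68 in GF and 7.30, 7.66 and 7.43 in KF, 3.26-fold higher (limma adjusted p = 0.00876, called in 4 of 9 fits). The list median of 0.08 fell to 0.01 without the 24 h control pair. Heat shock proteins had 2 of 122 called (1.64%), both cognate 70 kDa proteins on chromosome 18 and both higher. LOC100783822 (GLYMA18G52480, 61075335 to 61082052) read 2.51, 2.34 and 2.48 in GF and 4.60, 3.86 and 3.46 in KF, and LOC100787543 (GLYMA18G52610, 61172914 to 61175745) read 4.42, 3.89 and 4.27 in GF and 5.99, 4.67 and 5.47 in KF. They were 2.89- and 2.27-fold higher in KF (limma adjusted p = 0.025 and 0.0255, called in 4 and 3 of 9 fits). Of 76 histone and replication probe sets 1 was called (1.32%), lower. None of 183 probe sets for cyclins and mitosis was called. In all 3 pairs 45 of them were higher and 15 lower in KF, against 21.7% and 16.6% of all probe sets. Their median was 0.15, and it was 0.03 without the 24 h control pair and -0.07 in Al-treated roots.

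The proton pumps driven by pyrophosphate, which acidify the vacuole, differed in opposite directions between copies. This family too was picked after values were seen. Probe set ps12147232 (GLYMA17G11705, chromosome 17, 8773717 to 8777465), which matches 2 genes, read 4.29, 3.61 and 3.63 in GF and 7.79, 7.80 and 7.42 in KF, 14.2-fold higher (3.83 ± 0.23, limma adjusted p = 0.000162). Both probe sets of GLYMA18G29591 on chromosome 18 were lower in KF: ps12171545 by 4.22-fold, with GF at 7.45, 7.54 and 6.91 and KF at 5.41, 5.06 and 5.20, and LOC100803776 by at least 3.01-fold. These were called in 7 and 5 of 9 fits, and both probe sets can bind several genes. Of the 14 probe sets tested these were the only called ones (21.4%, against 1.26% of all probe sets). All 3 differences were called in Al-treated roots as well, at 2.78, -2.69 and -1.84 log2 units.

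Hormone and transcription factor lists had between 0 and 3 calls each. Shares above the 1.26% of all probe sets were those of ethylene (5%), gibberellin (3.08%), NAC (2.33%) and bHLH (1.88%) genes. NAC transcription factors had 2 of 86 called, both lower and next to each other on chromosome 7. LOC100786383 (GLYMA07G05370, 4014266 to 4016611) read 4.18, 4.48 and 3.63 in GF and 2.60, 2.02 and 1.97 in KF, 3.73-fold lower (limma adjusted p = 0.0191, called in 4 of 9 fits), and LOC100785870 (GLYMA07G05360, 3999218 to 4001905) was 3.39-fold lower (limma adjusted p = 0.0402, called in 3 of 9 fits). The SAUR gene LOC100803474, of a family that auxin raises quickly, was 4.60-fold lower with GF at 4.91, 4.55 and 4.83 and KF at 2.32, 2.53 and 2.83 (limma adjusted p = 0.0368, called in 3 of 9 fits). Of 276 auxin probe sets 1 was called higher and 2 lower, and of 60 ethylene probe sets 2 higher and 1 lower. Gibberellin genes had 1 of 65 called higher and 1 lower, bHLH factors 2 of 160 higher and 1 lower, ERF factors 1 of 219 lower and WRKY factors 1 of 119 higher. No MYB (of 164), cytokinin (58), abscisic acid (30) or circadian clock (16) probe set was called.

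Nutrient and wall genes likewise gave isolated calls, to be read beside the 1.26% called of all probe sets. The phosphate transporter PHT1-2 (GLYMA03G31950, chromosome 3, 39790137 to 39791989) read 4.08, 3.23 and 4.16 in GF and 2.82, 1.85 and 1.70 in KF, 3.25-fold lower (limma adjusted p = 0.0462, called in 3 of 9 fits), and it was lower by 3.35 log2 units in Al-treated roots. The CASP-like gene LOC100793181 (GLYMA03G11670, chromosome 3, 14346471 to 14350949), of the family that builds the Casparian strip in Arabidopsis, was 6.48-fold higher. Its GF values were 3.31, 3.34 and 3.53 and its KF values 6.26, 6.12 and 5.89 (limma adjusted p = 0.00312, called in 6 of 9 fits). It was the 1 call among 39 endodermis-type probe sets, whose median was 0.04. ABC transporters had 2 of 153 called (1.31%), both higher, flavonoid enzymes 1 of 166 (0.602%), higher, and xyloglucan enzymes 1 of 67 (1.49%), higher. Pectin enzymes (1 of 197, higher), nitrate (1 of 83, lower), iron and metal (1 of 89, higher), phosphate (1 of 63) and lipoxygenase genes (1 of 82, higher) also had single calls. No aquaporin (of 38), sugar transporter (72), terpene synthase (21) or structural wall protein (72) was called. Of 91 lignin-related probe sets IMT1 was called higher and laccase-7-like LOC100798292 lower, the latter 2.30-fold with GF at 6.90, 6.44 and 6.64 and KF at 5.78, 5.53 and 5.07 (called in 3 of 9 fits). In all, 75 of 4888 probe sets in the 47 lists were called, and 16 lists had none. Without the 24 h control pair the count was 20.

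Called probe sets lay close together in places. Runs of at least 3 called neighbours, each within 100000 bases of the next, numbered 16 and held 55 of the 619 called probe sets on numbered chromosomes. On chromosome 2, from 2488350 to 2563771 in the coordinates of the array annotation (assembly V1.0), 5 of 7 tested were called, 2 higher and 3 lower. This run holds SLTI114 and, 2540911 to 2541720, ps11786301 (GLYMA02G03280), which went the other way. It read 5.40, 6.15 and 6.26 in GF and 9.27, 9.44 and 9.37 in KF, 10.7-fold higher (3.42 ± 0.26, limma adjusted p = 0.000515). Its other 3 members were ps11786285, 6.56-fold lower, LOC100777907, 2.94-fold lower (called in 4 of 9 fits), and ps11786305, at least 1.77-fold higher (7 of 9).

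On chromosome 15, from 44634931 to 44795317, 5 of 9 were called, all higher in KF, among them the uncharacterized LOC100800341 (GLYMA15G38441), which was at least 3.95-fold higher with GF at 1.42, 1.87 and 1.34 and KF at 4.12, 3.88 and 3.80 (called in 5 of 9 fits). Probe sets ps12112375 and ps12112377 of this run have identical values on all arrays and so count as 1 measurement, called in 7 of 9 fits. On chromosome 12, from 3013321 to 3034920, 4 of 7 were called in both directions, and 3 of these 4 carry the same plant-specific DUF241 domain. There ps12024810 was 7.12-fold lower and LOC100783166 2.11-fold lower (called in 4 of 9 fits), while LOC100802945 was 2.38-fold higher (4 of 9) and ps12024825 1.81-fold higher (5 of 9). On chromosome 18, from 60657106 to 60843444, 4 of 19 were called, all higher: a probable importin-7 homolog (LOC100809471, 2.20-fold), an NB-ARC probe set (ps12176391, 4.67-fold), the bZIP gene BZIP55 (2.95-fold) and the ACT domain gene LOC100816426 (at least 1.03-fold). The NB-ARC probe set was called in 5 of 9 fits and each of the other 3 in 4. The annotation gives no gene name to 3 of the 5 called members on chromosome 2 and to 4 of the 5 on chromosome 15. Chromosome 18 had the highest share of calls among the numbered chromosomes, 57 of 2787 (2.05%), and chromosome 1 the lowest, 19 of 2281 (0.833%).

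Most of these variety differences were also seen in the 6 Al-treated arrays, which the control comparison does not use for its values. Of the 626 called in control roots, 510 (81.5%) differed in the same direction in all 3 Al pairs, against 27.2% of the 18402 uncalled probe sets whose 3 control pairs agreed in sign. In Al-treated roots 1119 probe sets were called (2.25%), 614 higher in KF (1.24%) and 505 lower (1.02%). The calls shared in the same direction numbered 282, which is 45.0% of the control calls and 25.2% of the Al calls. Both comparisons use 1 estimate of the spread, pooled over the control and Al pairs, so they are not fully independent. Al pairs that agree make a control call more likely, so the 81.5% follows in part from how the calls were made. The differences were smaller with aluminium at 504 of the 626. Median differences were 1.37 in control and 0.81 in Al-treated roots for the calls higher in KF, and -1.43 and -1.06 for those lower; since the probe sets were chosen by their control values, a smaller size in the other arrays follows in part from the choice.

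**Figure D5:**
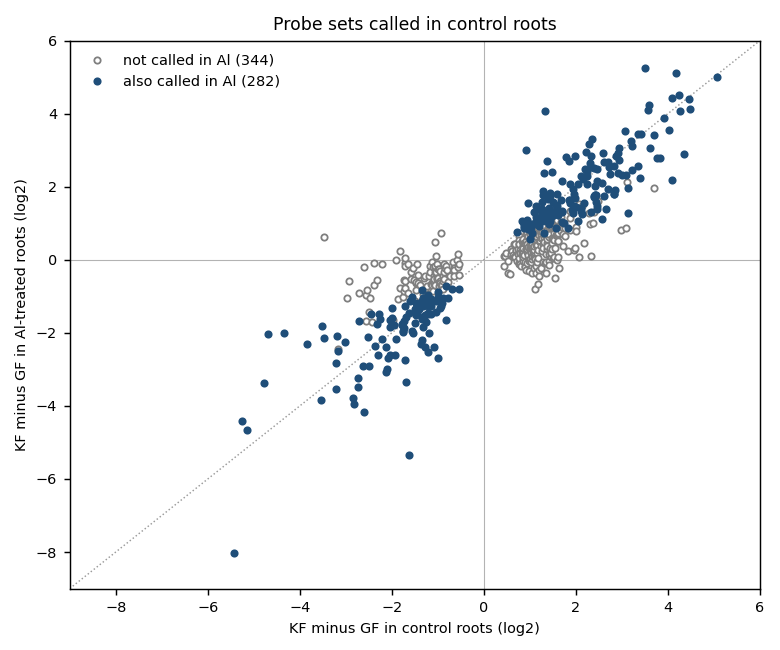
Variety difference (KF minus GF, log2) in control roots (horizontal axis) against that in Al-treated roots (vertical axis) for the 626 probe sets called in control roots; filled points were also called in Al, open points were not, and the dotted line marks equal differences. Filled points number 282, and 510 of the 626 kept their direction in all 3 Al pairs.

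A test of the change itself found few differences that depended on the treatment. The control difference minus the Al difference was called at 17 probe sets (0.0342%), 3 of them positive (0.00604%) and 14 negative (0.0282%). Only 5 of the 17 were called in control roots, LOC100778424 among them. LOC100779876 (GLYMA03G07972, chromosome 3, 8860628 to 8861672), uncharacterized, was lower in KF under both treatments, with control values of 2.48, 2.62 and 2.44 in GF and 1.19, 0.74 and 0.74 in KF. With aluminium GF read 5.26, 6.34 and 7.21 and KF 0.79, 0.77 and 1.23, so the gap was wider by 3.71 ± 0.38 log2 units (limma adjusted p = 0.0233). Its control difference was called in 5 of 9 fits. The other 12 of the 17 were not called in control roots.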

How the data were processed

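The series measured 12 soybean root samples, 1 array per variety, treatment and time, on an Affymetrix array whose table lists 75990 probe sets, 66195 in the category main. The values used are intensities on a log2 scale, already normalized by the authors as deposited; how is not given in the sources used here. There are 24 numbered signal and call columns that name no sample, which were not used.

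Gene names come from the deposited annotation, updated through RefSeq gene identifiers (31963 of 33493 single-gene main probe sets matched). Coordinates are those of the deposited annotation (assembly V1.0). The probe sets in the lowest 0.25 of main probe sets by mean log2 intensity, below 1.12, were left out and no pseudocount was added. limma 3.58.1 in R 4.3.3 fitted all 12 arrays with 6 blocks (treatment by time) and a variety difference per treatment, with an intensity trend and 4 residual degrees of freedom. A probe set was called at a Benjamini-Hochberg adjusted p under 0.05. Values after ± are limma's standard errors of a difference over 3 pairs. Their spread is pooled over the control and Al pairs and drawn towards that of other probe sets, with 4.93 prior degrees of freedom. Fold changes marked "at least" set a variety at or below the background-probe median on its 3 arrays at that median. With 1 array per condition, the number of arrays limits the precision.

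The members, lists and tests were chosen with earlier results of these data known, and the domain families named as picked after values were seen were added last. Named genes are the 15 largest called rises and falls with 1 gene, up to 2 members per list, the 4 largest runs of called neighbours, and the 5 largest of the contrast between treatments in each direction; a few list members beyond these were named after their values were seen. Alternatives changed the arrays, blocks, normalization, filter, offset and trend. The fit was tested on simulated data. No sequences are shown.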

Additional observations from a re-analysis of the deposited data

Results flagged for a closer look

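The difference between control and Al-treated roots in how the varieties compare was called at 17 probe sets by limma, 3 with a positive and 14 with a negative contrast (control difference minus Al difference).

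SYP24, a putative syntaxin-24-like gene with a late embryogenesis abundant domain, read 2.15, 2.37 and 2.41 in GF and 1.34, 1.39 and 1.48 in KF control roots (-0.91, limma adjusted p = 0.056). With aluminium GF read 7.15, 7.43 and 8.51 and KF 1.29, 1.61 and 2.02, a contrast of 5.15 ± 0.26 (limma adjusted p = 0.000449). KF thus stayed near background under both treatments. LOC100779876 behaved likewise, with a contrast of 3.71 ± 0.38 (limma adjusted p = 0.0233). WRKY70-like LOC100792193 read 5.75, 5.82 and 4.86 in GF and 3.21, 2.47 and 2.12 in KF with aluminium, a contrast of 2.53 ± 0.28 (limma adjusted p = 0.0356).

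Contrasts in the other direction were led by LOC100782055, glutelin type-A 1-like, at -4.77 ± 0.48 (limma adjusted p = 0.023). With aluminium KF read 6.56, 7.64 and 8.73 there and GF 2.06, 2.37 and 2.30, and its probe set can bind several genes. The GDSL lipase gene LOC100809397 read between 0.70 and 0.96 on all 6 control arrays and 5.38, 5.84 and 5.25 in KF with aluminium (-4.66 ± 0.25, limma adjusted p = 0.000449). The glutathione S-transferase GSTU24, whose probe set can bind several genes, read at most 1.30 on the control arrays and 5.60, 5.32 and 6.56 in KF with aluminium (-4.52 ± 0.35, limma adjusted p = 0.00529). For the unnamed ps11866315 the contrast was -4.24 ± 0.36 (limma adjusted p = 0.00872). The expansin-like gene LOC100778424 had -4.08 ± 0.31 (limma adjusted p = 0.00529), with the varieties apart in control roots only.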

How the results depend on the processing

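All 626 control differences kept their sign under every alternative in which they were tested, 545 of them under a stricter filter on dim probe sets. Only a change of normalization could have altered a sign, because the 3 control pairs of each agreed in sign. The number called varied with the model. It was 1026 from only the control arrays (608 of the 626 among them), 269 with no time block, 409 with an additive time effect, and 326 when at least 2-fold in each control pair was also required. Leaving out a pair or a time gave 75 to 1254. The Al-treated calls were 173 from only the Al arrays, 296 with no time block, 399 with an additive time effect and 126 to 1359 leaving out arrays. The contrast between treatments had 4 calls with no time block, 5 with an additive time effect, 26 under the stricter filter and 0 to 167 leaving out arrays; limma gave 0 without all 6 h arrays, where 4830 had an unadjusted p under 0.05. A 1.5-fold limit gave 4738, 5803 and 8501 probe sets at 6, 12 and 24 h, and a 4-fold limit 224, 200 and 238. The list total of 75 was 20 without the 24 h control pair, chosen after seeing the data. The cause of these changes was not tested, beyond the fewer arrays. Quantile and cyclic loess normalization moved the share of calls higher in KF from 65.5% to 57.8% and 58.2%. Of 2007 named-gene values under alternatives, 1567 kept side and direction, 411 lost the call, 26 gained it and 3 reversed. The reversals were of GSTU24, uncalled at 0.03 in control roots: -0.011 after cyclic loess and, leaving out arrays, -0.12 to 0.20. The reported fit pairs the varieties within each treatment and time.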

Other observations

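Called probe sets were often without a named gene. Of the 626, 266 (42.5%) had no gene in the annotation, against 38.5% of those tested, and 99 (15.8%) can bind several genes, against 10.8%. Of the calls with KF higher, 119 (29.0%) had GF at or below the background median on all 3 control arrays, and of those with KF lower 49 (22.7%) had KF there. Among all probe sets tested these shares were 32.2% for GF and 26.8% for KF.

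Among the 5 probe sets called both in control roots and for the contrast between treatments, the uncharacterized LOC100776716 (GLYMA20G27190, chromosome 20, 36409069 to 36409831) resembled the expansin-like gene. It read 6.36, 7.63 and 7.21 in GF and 4.08, 5.47 and 4.52 in KF control roots (-2.38, limma adjusted p = 0.000749). With aluminium it read 8.10, 9.23 and 9.38 in GF and 8.10, 8.77 and 9.56 in KF, where the groups overlap. The glycolipid transfer domain gene LOC100813626 (GLYMA20G24840, chromosome 20, 34488258 to 34491097) read 2.10, 1.60 and 2.14 in GF and 3.28, 3.25 and 3.28 in KF control roots, and the gap was wider with aluminium (4.09 log2 units). Its control difference was called in 4 of the 9 fits that left out arrays. These genes were chosen after their values were seen.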
